A study of Salvia dorisiana with 6 samples.

Results

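Roots and stem of *Salvia dorisiana* were compared over the 85 transcripts of the deposited table of selected genes, with 1 RNA sequencing library from roots and 1 from stem. Every listed transcript was taken as a member, 85 of 85, so nothing measured in these organs was used to choose members from the table. The table itself is a selection of the study: it holds transcripts abundant in isolated trichomes (RPKM >1000, passed by all 85). These also followed the limonene synthase SdLS and the pathway metabolites over the tissues of the study (R >0.6), and roots and stem were among those tissues. The plants were untreated greenhouse plants propagated as cuttings, and the other 4 libraries came from leaves of 3 sizes and from isolated trichomes. Neither the number of plants nor their age behind a library is given in the sources used here. With a single library an organ, no difference has a replicate check and no test was made. The listed transcripts hold no defining marker of root or stem, so the organ labels could not be checked against markers.

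Levels are in RPKM, which takes account of coding length and of the number of reads a library mapped to the trichome transcripts, and they may be compared between genes as well as between organs. The measure of difference is log2 of RPKM + 1 in roots over RPKM + 1 in stem, which understates the differences of low transcripts. Plain ratios of RPKM are given with 95% intervals that cover counting error only. They rest on fragments recovered from the values. The smallest totals that fitted were 6516794 mapped fragments in roots and 7323656 in stem. A listed transcript had a median of 72 fragments in roots, against 442 in stem. In roots 13 transcripts had fewer than 10 fragments, and in stem 2 did. In these whole organs, fewer cells of a type and less RNA per cell cannot be told apart.

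Plants of the mint family make terpenoids in glandular trichomes, epidermal hairs that cover the aerial organs. The plastidic methylerythritol phosphate (MEP) pathway supplies the 5-carbon units, prenyltransferases join them, terpene synthases form the olefin skeletons, and P450s, dehydrogenases, methyltransferases and acyltransferases decorate these. In *S. dorisiana* limonene is converted by these classes of enzyme into methylperillate. Roots of sages also make terpenoids: in *Salvia miltiorrhiza* the abietane diterpenoids called tanshinones accumulate in the root, through copalyl diphosphate synthase, the diterpene synthase that makes miltiradiene, and the P450 ferruginol synthase.

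Most of the listed transcripts were lower in roots than in stem, and a minority led by the MEP pathway was higher. Of the 85, 20 were higher in roots (23.5%) and 65 were higher in stem. Beyond 2-fold on the log2 scale used, 9 were higher in roots (10.6%) and 54 were higher in stem (63.5%), with 22 between these bounds. Counts beyond 2-fold use this scale throughout, and by the plain ratio of RPKM clust219 in roots and clust1050, clust1093 and clust1559 in stem would also pass. The median log2 ratio was -1.78, the quartiles were -3.19 and -0.17, and the range ran from 3.24 for clust158, annotated as a 1-deoxy-D-xylulose 5-phosphate synthase, to -5.54 for the 2-alkenal reductase clust3274. Differences towards stem were also the larger ones: 26 transcripts stood more than 8-fold higher in stem and 1 more than 8-fold higher in roots. Levels spanned 0.144 to 1032 RPKM in roots and 0.794 to 1261 RPKM in stem, with medians of 6.86 RPKM in roots and 49.2 RPKM in stem. The list as a whole took a like share of each library, 1.33% of mapped fragments in roots and 1.42% in stem. The interval of the ratio included 1 for 2 transcripts, clust2269 and clust5317. Centring the ratios on the listed ATP synthase subunits instead would raise each by 0.36 and split the list into 25 transcripts higher in roots and 60 higher in stem.

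**Figure D1:**
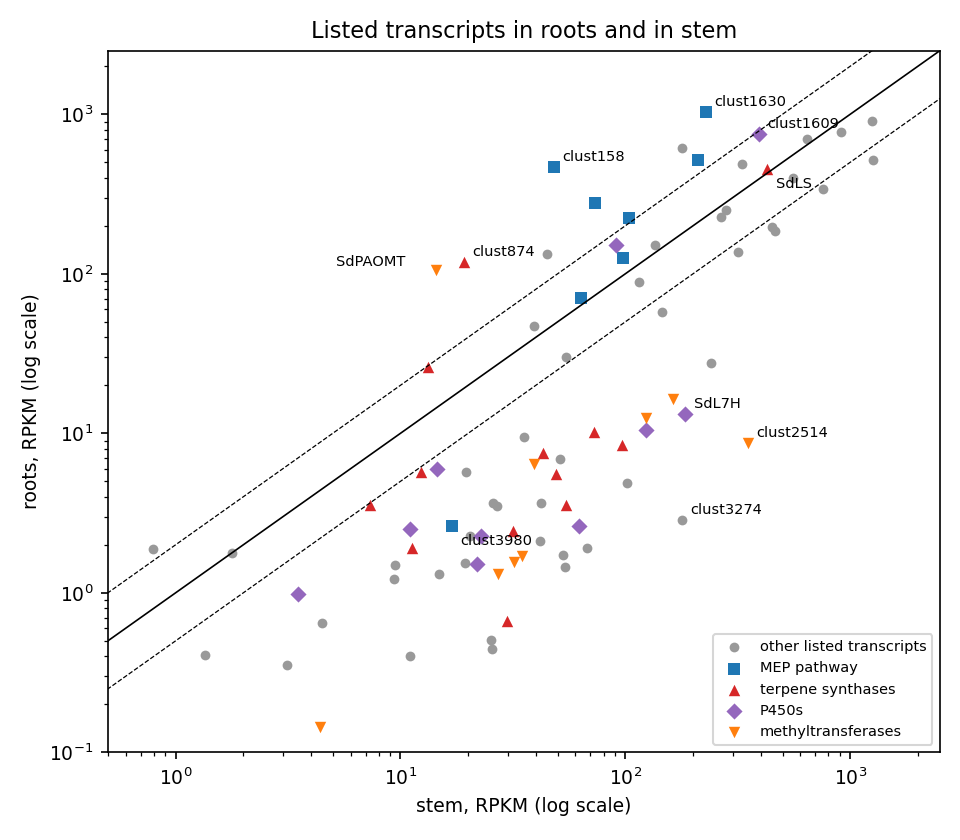
RPKM of each listed transcript in roots (vertical, log scale) against stem (horizontal, log scale), 1 point a transcript, with 4 gene groups marked; the solid line is equality and the dashed lines are 2-fold ratios of RPKM. Most points lie below the lower dashed line, while 7 of 8 MEP pathway transcripts lie above the line of equality.

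By annotation the list falls into 13 gene groups with 74 transcripts, and 11 transcripts were placed in none. The groups were drawn with the values of these data known. The MEP pathway was the group with a median above 0, a log2 ratio of 1.20 against -1.78 over the list. The medians of the antioxidant transcripts (-0.46) and of primary carbon and energy metabolism (-0.47) were -0.11 and -0.12 with ratios centred on the ATP synthase subunits. The latter group holds both subunits, and its median member is subunit O, clust4711. Its centred median is therefore set by the choice of reference. The lowest medians were those of the acyltransferases (-4.14), the carotenoid cleavage dioxygenases (-3.46) and the methyltransferases (-3.24). All 5 transcripts of lipid and cuticle metabolism were more than 2-fold higher in stem, a side on which 63.5% of the whole list lay.

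**Figure D2:**
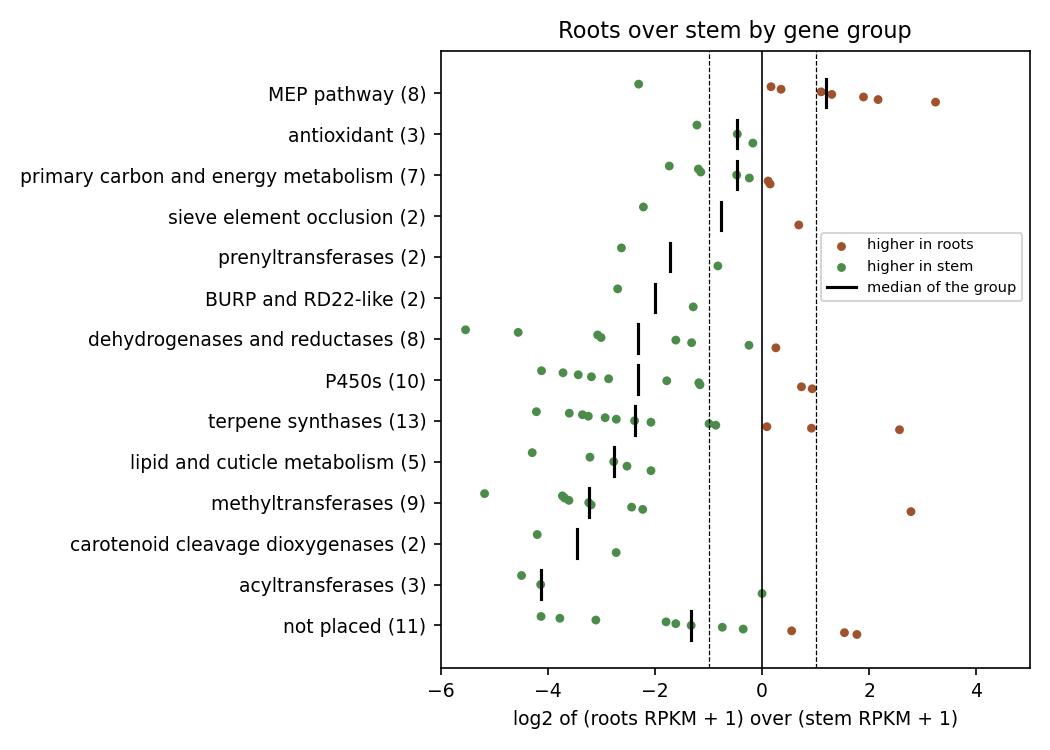
Log2 ratio of roots over stem (RPKM + 1) for every listed transcript, by gene group with the number of members in brackets; the thick bar is the group median and the dashed lines mark 2-fold. The MEP pathway median is 1.20, and the other 12 group medians lie below 0.

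The MEP pathway transcripts were higher in roots at the listed steps, apart from a nearly level kinase and the last step. In order of the pathway, clust158 is closest to 1-deoxy-D-xylulose 5-phosphate synthase 2 (DXS), the entry enzyme, and was at 465 RPKM in roots and 48.4 RPKM in stem. This 9.62-fold difference (8.93–10.4) was the largest towards roots in the list. The next enzyme, the reductoisomerase DXR, is represented by clust5857, at 276 RPKM in roots and 73.6 RPKM in stem, a ratio of 3.75 (3.32–4.25). A further transcript, clust1689, carries DXR domains although its closest BLAST hit is given as a DXS. It was at 223 RPKM in roots and 103 RPKM in stem, a ratio of 2.16 (2.0–2.33). The middle of the pathway differed little between the organs. The kinase clust2269 (CMK) was at 71.0 RPKM in roots and 63.2 RPKM in stem, with 311 fragments in each library and a ratio of 1.12 whose interval includes 1 (0.957–1.32). The cyclodiphosphate synthase clust4785 (MDS), which closes the ring of the intermediate, was at 126 RPKM in roots and 98.0 RPKM in stem.

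The last steps again stood higher in roots. The 4-hydroxy-3-methylbut-2-enyl diphosphate synthase clust133 (HDS) was at 520 RPKM in roots and 210 RPKM in stem, a ratio of 2.47 (2.37–2.58). The reductase clust1630 (HDR), which releases the products isopentenyl and dimethylallyl diphosphate, was at 1032 RPKM in roots and 229 RPKM in stem, a ratio of 4.5 (4.31–4.71). It was the most abundant listed transcript in roots and ranked 17 in stem. The exception was clust3980, an isopentenyl diphosphate isomerase (IDI), the enzyme that interconverts these products. It was at 2.62 RPKM in roots and 16.9 RPKM in stem, 6.45-fold lower in roots (3.51–13.0), from 12 fragments in roots and 87 in stem. Of the 8 transcripts placed with the pathway, 5 were more than 2-fold higher in roots, 2 lay within 2-fold and 1 was more than 2-fold higher in stem, where the shares of the whole list were 10.6% beyond 2-fold in roots and 63.5% in stem. Summed over the 7 without the isomerase, the pathway was at 2713 RPKM in roots and 826 RPKM in stem. HDR was 393 times as abundant as the isomerase in roots, 13.5 times in stem and 4.38 times in trichomes. Other isopentenyl diphosphate isomerases of the plant were not analysed here.

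**Figure D3:**
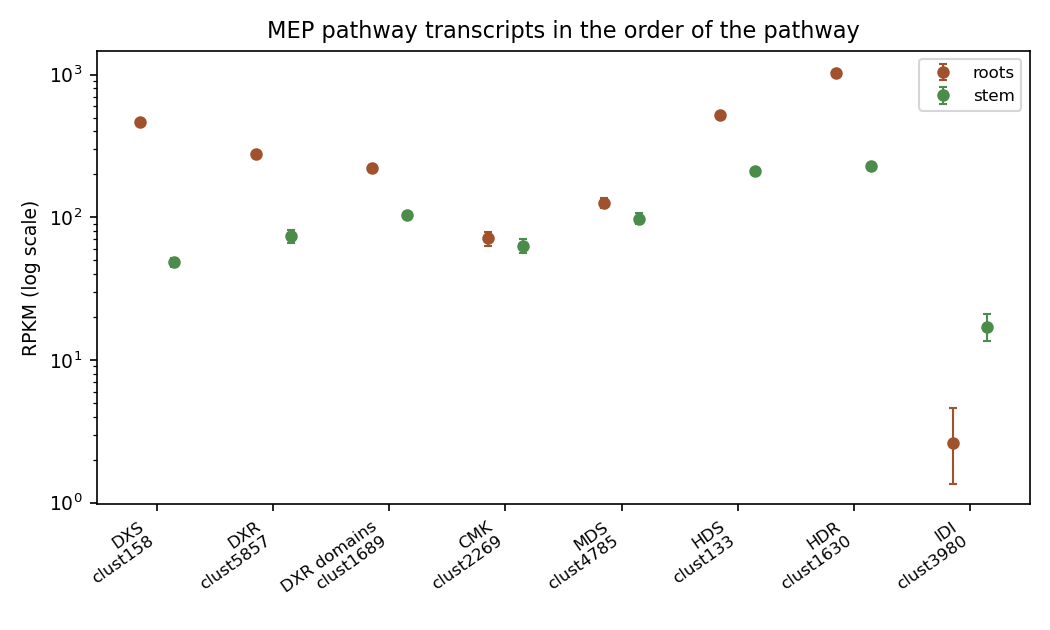
RPKM (log scale) of the MEP pathway transcripts in roots (left of each pair) and stem (right), in the order of the pathway with the isomerase last; points are the single libraries and bars are 95% Poisson intervals for counting error only. Roots are at or above stem for 7 transcripts, and the isomerase is at 2.62 RPKM in roots and 16.9 RPKM in stem.

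Neither of the 2 prenyltransferases was higher in roots, and of the whole list 65 of 85 transcripts were higher in stem. These enzymes join the 5-carbon units, and both transcripts are closest to lavandulyl diphosphate synthase. The first, clust3337, was at 30.2 RPKM in roots and 54.3 RPKM in stem, and the second, clust3861, was at 3.53 RPKM in roots and 27.0 RPKM in stem. The pair thus differed by 8.55-fold in roots, 2.01-fold in stem and 1.46-fold in trichomes.

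Among the 13 terpene synthases, 3 were higher in roots, SdLS by so little that its sign depends on the scaling, and 10 were higher in stem, 8 of these by more than 2-fold on the RPKM + 1 scale, with a median log2 ratio of -2.38. These counts are near the shares of the whole list, 23.5% higher in roots and 63.5% more than 2-fold higher in stem. The cluster of SdLS, the limonene synthase, was the most abundant of them in both organs and nearly level between them, at 455 RPKM in roots (443–468) and 428 RPKM in stem (417–439). Its log2 ratio of 0.09 turns to -0.02 when the libraries are scaled to sequenced reads, so no direction is given for it. The study names SdLS and SdEuS for this cluster, which is therefore the value of a pair. The other 2 monoterpene-type synthases were lower in roots. The cluster labelled SdPS, clust629, was at 7.48 RPKM in roots and 43.2 RPKM in stem. The sabinene synthase SdSaS was at 0.663 RPKM in roots, from 7 fragments, and 29.9 RPKM in stem, 45.1-fold lower in roots (21.7–113). The level of the SdLS cluster over that of SdSaS was 687 in roots, 14.3 in stem and 16.1 in trichomes.

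The diterpene-type synthases stood on both sides. The transcript clust874, closest to kaurene, miltiradiene and sclareol synthases, was at 118 RPKM in roots (112–124) and 19.1 RPKM in stem (16.8–21.6). This ratio of 6.18 (5.40–7.11) was the third highest of the list. By contrast clust70, a copalyl diphosphate synthase, the class of enzyme that makes the substrate of miltiradiene synthase, was at 5.57 RPKM in roots and 49.2 RPKM in stem, 8.83-fold lower in roots (7.07–11.1). The remaining member, clust927, closest to diterpene and kaurene synthases, was at 1.90 RPKM in roots and 11.2 RPKM in stem. In stem clust70 was 2.58 times as abundant as clust874, close to the 2.54 times of trichomes, whereas in roots clust874 was 21.2 times as abundant as clust70.

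Of the 7 sesquiterpene-type synthases, 1 was higher in roots, against 23.5% of the whole list. This member, clust1244, is closest to vetispiradiene, germacrene B and δ-cadinene synthases. It was at 26.1 RPKM in roots and 13.3 RPKM in stem, a ratio of 1.96 (1.59–2.44). The 6 others are annotated with germacrene D, caryophyllene, copaene or patchoulol synthases. They were lower in roots to unequal extents, between 2.05-fold for clust1093, at 3.55 RPKM in roots and 7.29 RPKM in stem, and 15.3-fold for clust3938, at 3.58 RPKM in roots and 54.6 RPKM in stem. In this range clust1050 was at 5.68 RPKM in roots and 12.3 RPKM in stem. The germacrene D synthase clust1129, the most abundant of the 7 in trichomes, was at 10.2 RPKM in roots and 72.7 RPKM in stem. Another germacrene D synthase, clust1421, was at 8.51 RPKM in roots and 96.4 RPKM in stem, and clust2225 was at 2.43 RPKM in roots and 31.5 RPKM in stem. Levels in roots were thus low for all 6, between 2.43 and 10.2 RPKM, while levels in stem spread over 7.29 to 96.4 RPKM.

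Of the 10 P450s, 2 were higher in roots and 8 were more than 2-fold higher in stem, against 23.5% and 63.5% of the whole list, with a median log2 ratio of -2.32. Both exceptions are of the CYP76 type annotated as ferruginol synthase, which in *S. miltiorrhiza* oxidizes miltiradiene. The first, clust1609, was at 750 RPKM in roots (733–768) and 392 RPKM in stem (380–404), a ratio of 1.91 (1.84–1.99). The second, clust1568, was at 152 RPKM in roots (145–160) and 91.1 RPKM in stem (85.6–96.9), a ratio of 1.67 (1.54–1.81). The 2 other ferruginol synthase-like transcripts went the opposite way. The CYP76AK6-like clust1540 was at 10.6 RPKM in roots and 124 RPKM in stem, 11.7-fold lower in roots (9.62–14.5). Likewise clust1600 was at 2.26 RPKM in roots and 22.8 RPKM in stem. The ratio of clust1609 over clust1540 was 71.1 in roots, 3.16 in stem and 2.56 in trichomes.

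The P450s outside this class were all lower in roots, against 65 of 85 in the whole list. The P450s closest to menthofuran synthase, a monoterpene hydroxylase of mint, are SdL7H, clust3466 and clust4348. SdL7H, the limonene 7-hydroxylase of the study, was at 13.1 RPKM in roots and 185 RPKM in stem, 14.1-fold lower in roots (11.8–17). The most unequal P450 was clust3466, at 2.63 RPKM in roots and 62.2 RPKM in stem, and clust4348 was at 1.52 RPKM in roots and 22 RPKM in stem. Smaller differences were found for clust1523 (CYP71AT89), at 5.94 RPKM in roots and 14.5 RPKM in stem, and clust1660, with the same annotation, at 2.50 RPKM in roots and 11 RPKM in stem. The CYP71B9-like clust5902 was at 0.984 RPKM in roots, from 4 fragments, and 3.5 RPKM in stem. Summed over all 10, the P450s were nevertheless alike in the organs, at 942 RPKM in roots and 928 RPKM in stem. Without clust1609 and clust1568 the sums were 39.5 RPKM in roots and 445 RPKM in stem.

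The 4 genes characterised for the route to methylperillate did not keep a common order between the organs. The SdLS cluster, at the start, was nearly level. SdL7H, which hydroxylates limonene, was lower in roots, as given above. SdPOHDH, the dehydrogenase of perillyl alcohol, was at 5.76 RPKM in roots (4.17–7.76) and 19.7 RPKM in stem (16.8–22.9), 3.41-fold lower in roots (2.43–4.89). The methyltransferase of perillic acid, SdPAOMT, was at 105 RPKM in roots (97.5–113) and 14.4 RPKM in stem (11.9–17.4), a ratio of 7.28 (5.95–8.97) and the second highest of the list. In roots the SdLS cluster and SdPAOMT therefore stood well above the 2 characterised oxidizing enzymes between them in the pathway. The study isolated no *S. dorisiana* enzyme for the further oxidation of perillyl aldehyde to perillic acid, so that step has no value here. The level of the SdLS cluster over that of SdL7H was 34.7 in roots, 2.31 in stem and 2.41 in trichomes. A read could match several transcripts in the mapping of the authors, and each cluster merges similar open reading frames, so that a value may include close relatives, whose part was not tested.

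**Figure D4:**
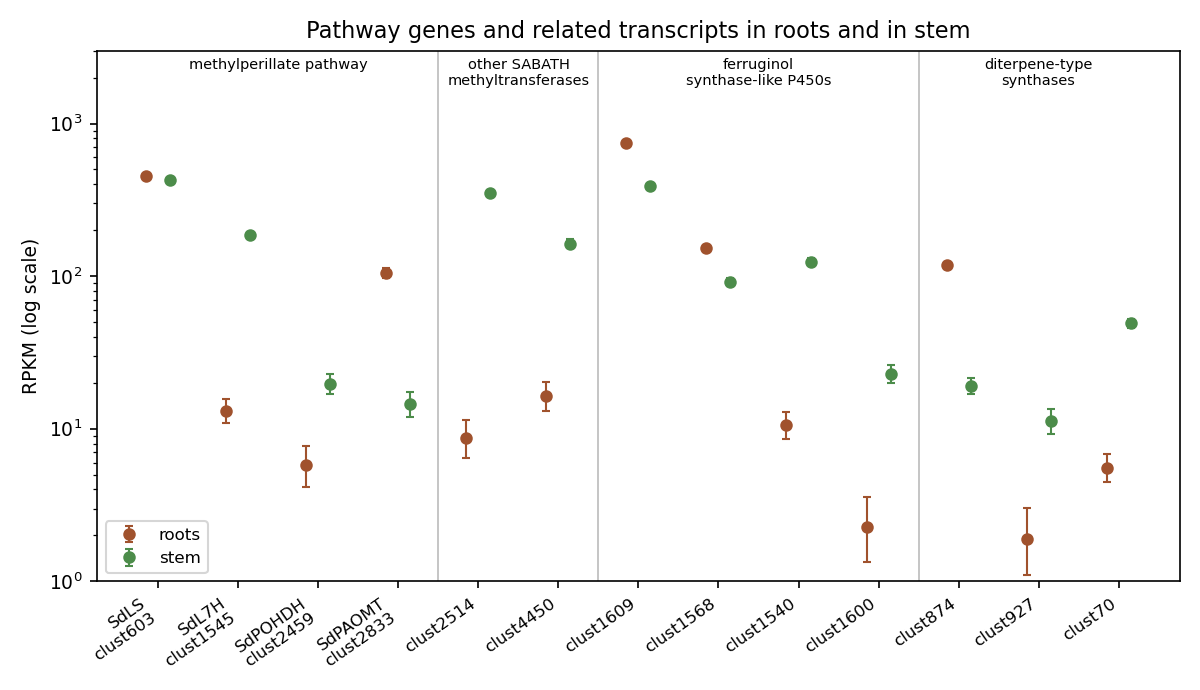
RPKM (log scale) in roots (left of each pair) and stem (right) for the 4 methylperillate pathway genes, the 2 other SABATH methyltransferases, the 4 ferruginol synthase-like P450s and the 3 diterpene-type synthases; bars are 95% Poisson intervals for counting error only. SdPAOMT, clust1609, clust1568 and clust874 are higher in roots while their listed relatives are lower there, at 16.4 RPKM or less.

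Apart from SdPAOMT the transcripts grouped as methyltransferases were lower in roots, 8 of 9 by more than 2-fold, against 63.5% of the whole list. The group median was -3.24. The membrane protein clust2795 also carries methyltransferase domains, ICMT and PEMT, but was placed in no group. It was higher in roots, at 133 RPKM in roots and 45.0 RPKM in stem. SdPAOMT shares the SABATH-type domain Methyltransf_7 with clust2514 and clust4450, a family of carboxyl methyltransferases that includes those of salicylic acid. The first of these, clust2514, was at 8.67 RPKM in roots and 351 RPKM in stem, 40.5-fold lower in roots (30.6–54.7). The second, clust4450, was at 16.4 RPKM in roots and 163 RPKM in stem, 9.96-fold lower in roots (7.97–12.6). SdPAOMT was thus the most abundant of the 3 in roots, 12.1 times clust2514, and the least abundant in stem, where clust2514 was 24.3 times SdPAOMT. The *O*-methyltransferases with a Methyltransf_2 domain, which act on phenolics and flavonoids, were between 20.5-fold and 30.3-fold lower in roots. Of these clust2472 was at 1.31 RPKM in roots and 27.2 RPKM in stem. The flavonoid-type clust2724 and clust2684 were at 1.57 and 1.69 RPKM in roots, against 32.1 and 34.7 RPKM in stem. The caffeic acid-type clust2791 had 1 fragment in roots (0.144 RPKM) and 34 in stem (4.37 RPKM), a 30.3-fold difference with a wide interval (5.08–1230). Outside both families, clust4440, a methyltransferase of phylloquinone, the quinone of photosystem I, was at 12.5 RPKM in roots and 123 RPKM in stem. The fatty-acyl methyltransferase-like clust15 was at 6.41 RPKM in roots and 39.2 RPKM in stem.

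The 8 dehydrogenases or reductases held the most unequal transcript of the list and some of the least unequal. The 2-alkenal reductase clust3274, of a class that reduces reactive carbonyls, was at 2.87 RPKM in roots (1.70–4.53) and 179 RPKM in stem (169–189), 62.4-fold lower in roots (39.3–106). A second 2-alkenal reductase, clust2675, was at 185 RPKM in roots and 464 RPKM in stem, 2.50-fold lower in roots (2.35–2.67). This pair differed by 64.6-fold in roots, 2.59-fold in stem and 1.49-fold in trichomes. The short-chain dehydrogenase clust3054 was at 1.91 RPKM in roots and 67.4 RPKM in stem, 35.4-fold lower in roots (20.1–68.9). The menthol dehydrogenase-like clust3165 was at 1.54 RPKM in roots and 19.4 RPKM in stem. The phenylcoumaran benzylic ether reductase-like clust3515, of phenylpropanoid metabolism and the most abundant listed transcript in trichomes, was at 27.6 RPKM in roots and 239 RPKM in stem. Near equality stood the peroxisomal enoyl-CoA reductase clust4242, at 225 RPKM in roots and 267 RPKM in stem, whose log2 ratio of -0.25 was 0.11 with ratios centred on the ATP synthase subunits. The aldehyde dehydrogenase clust1416 was the member higher in roots, at 47.1 RPKM in roots and 39.2 RPKM in stem, a ratio of 1.20 (1.05–1.37).

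Transcripts of acyl transfer, carotenoid cleavage and surface lipids were low in roots. Of the 3 acyltransferases, clust1854, closest to an anthocyanin malonyltransferase of *Perilla*, was at 1.45 RPKM in roots and 54.1 RPKM in stem, 37.4-fold lower in roots (21.7–70.8). The alcohol acyltransferase clust1946 was at 4.86 RPKM in roots and 102 RPKM in stem. The vinorine synthase-like clust5317 was at 1.79 RPKM in both organs, from 8 fragments in roots and 9 in stem, so that a difference was not detectable at this depth. Both carotenoid cleavage dioxygenases, which release volatile apocarotenoids, were lower in roots, against 65 of 85 in the whole list. The type 4 enzyme clust976 was at 0.443 RPKM in roots and 25.6 RPKM in stem, 57.7-fold lower in roots (24.5–179). The type 1 enzyme clust1111 was at 6.86 RPKM in roots and 51.0 RPKM in stem. Among the 5 transcripts of lipid and cuticle metabolism, clust458 is closest to ECERIFERUM 1, which in *Arabidopsis* makes the alkanes of the cuticular wax of shoots. It was at 1.73 RPKM in roots and 52.6 RPKM in stem, 30.4-fold lower in roots (19.7–49.4). The group also holds the GDSL lipases clust2659 (3.65 RPKM in roots and 42.3 RPKM in stem) and clust2690 (3.67 RPKM in roots and 25.9 RPKM in stem). The ketoacyl-ACP synthase clust1812 of fatty acid elongation was at 1.31 RPKM in roots and 14.8 RPKM in stem, and the fatty acyl-CoA reductase clust2942 was at 1.49 RPKM in roots and 9.5 RPKM in stem.

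Transcripts of primary carbon and energy metabolism were abundant in both organs, apart from a plastid translocator. Of 7 members, 4 lay within 2-fold and 3 were more than 2-fold higher in stem, against 22 and 54 of the 85 listed transcripts. The fructose-bisphosphate aldolase clust2220, a glycolytic and plastidic enzyme, was at 696 RPKM in roots and 644 RPKM in stem, a ratio of 1.08 (1.04–1.12). The glucose-6-phosphate isomerase clust628 was at 151 RPKM in roots and 136 RPKM in stem. The mitochondrial ATP synthase subunits were close to level. The beta subunit clust1041 was at 774 RPKM in roots and 914 RPKM in stem, a log2 ratio of -0.24. Centring on the mean of the subunits turned it to 0.12, a sign fixed by that reference, which includes this transcript. Subunit O, clust4711, was at 400 RPKM in roots and 556 RPKM in stem. The mitochondrial malate dehydrogenase clust1810 was 2.22-fold lower in roots (2.11–2.33), at 342 RPKM in roots and 758 RPKM in stem. The plastidic triosephosphate isomerase clust2916 was at 197 RPKM in roots and 451 RPKM in stem. Far lower stood the phosphoenolpyruvate/phosphate translocator clust2305, which imports phosphoenolpyruvate into plastids, at 0.644 RPKM in roots and 4.47 RPKM in stem.

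The 3 antioxidant transcripts were likewise high in both organs. The CuZn superoxide dismutase clust5995 ranked 2 of the list in each, at 908 RPKM in roots and 1253 RPKM in stem. The glutathione peroxidase clust5293 was at 250 RPKM in roots and 282 RPKM in stem, and its log2 ratio of -0.17 was 0.18 with ratios centred on the ATP synthase subunits. The plastidic peroxiredoxin clust5140 was at 136 RPKM in roots and 318 RPKM in stem. Of the 2 dehydration-responsive transcripts with BURP or RD22 annotation, clust2906 was the most abundant listed transcript in stem, at 516 RPKM in roots and 1261 RPKM in stem, while clust2665 was at 2.28 RPKM in roots and 20.3 RPKM in stem. The 2 sieve element occlusion proteins, structural proteins of the phloem, were low in both organs. The first, clust219, was at 1.88 RPKM in roots (1.13–2.94) and 0.794 RPKM in stem (0.363–1.51), from 19 and 9 fragments. The second, clust226, was at 1.22 RPKM in roots (0.711–1.96) and 9.33 RPKM in stem (7.88–11).

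Among the 11 transcripts in no group, 3 were higher in roots, and 2 of these by more than 2-fold, against 23.5% and 10.6% of the whole list. The membrane steroid-binding protein 2-like clust5333, whose Cyt-b5 domain is that of electron carriers and heme-binding membrane proteins, was at 610 RPKM in roots (587–633) and 178 RPKM in stem (167–190), a ratio of 3.43 (3.17–3.70). The membrane protein clust2795, with ICMT, PEMT and Steroid_dh domains, was at 133 RPKM in roots and 45.0 RPKM in stem, a ratio of 2.95 (2.60–3.34). The epoxide hydrolase clust3307 was at 487 RPKM in roots and 332 RPKM in stem, a ratio of 1.47 (1.39–1.55). Close to equality was the plastidic nucleoside diphosphate kinase clust5193, at 89.3 RPKM in roots and 114 RPKM in stem, whose log2 ratio of -0.35 was 0.00 after the same centring. Moderate differences towards stem were found for the uncharacterized clust3478, with domains of dehydrogenases,, at 57.6 RPKM in roots and 146 RPKM in stem, and for the PDR-type ABC transporter clust10, of a family that exports terpenoids and other metabolites, at 9.48 RPKM in roots and 35.4 RPKM in stem. The phenazine biosynthesis-like clust4414 was 19.7-fold lower in roots (10.8–40.1), at 2.12 RPKM in roots and 41.8 RPKM in stem. Few fragments in roots limit the rest. The chalcone isomerase clust6044 of flavonoid synthesis had 2 fragments in roots (0.504 RPKM) and 113 in stem (25.3 RPKM), a 50.3-fold difference with an interval of 13.6 to 420. The ethylene-responsive factor clust4655, the single transcription factor named in the annotation, had 2 fragments in roots (0.401 RPKM) and 62 in stem (11.1 RPKM). The serine carboxypeptidase-like clust1559 and the unnamed clust3441 had 4 and 2 fragments in roots, against 15 and 20 in stem.

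All 85 transcripts had their highest level of the 6 libraries in trichomes. Measured against that level, the quartiles lay closer together in stem than in roots. The full range was 0.0134% to 68.4% in roots and 0.0555% to 80.7% in stem. A listed transcript was in the median at 0.234% of its trichome level in roots, with quartiles of 0.102% and 5.32%, and at 2.24% in stem, with quartiles of 1.05% and 4.47%. In roots 53 transcripts were below 1% of the trichome level and 9 lay from 1% to 5%, whereas in stem 20 were below 1% and 46 lay from 1% to 5%. The 20 transcripts higher in roots had a median of 6.56% of the trichome level in roots and 2.86% in stem. For the 65 higher in stem the medians were 0.146% in roots and 2.15% in stem. The stem medians of these sets were thus alike, and the sets differed by their levels in roots, which the choice of the sets by the ratio of the organs in part fixes. The share of glandular trichome cells in either organ was not measured, and its part in these values was not tested.

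**Figure D5:**
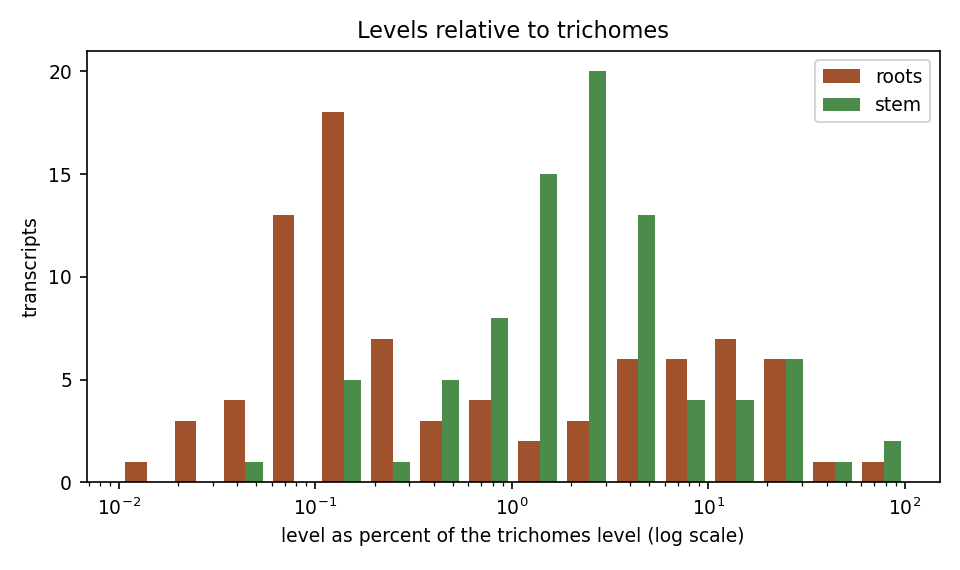
Number of listed transcripts (vertical) by level as a percent of the trichomes level (horizontal, log scale), in roots (left bar of each bin) and stem (right bar). In stem 46 of 85 lie from 1% to 5%, while in roots 53 lie below 1%.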

How the data were processed

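The authors made stranded paired-end libraries, demultiplexed them with CASAVA 1.8.1 (submitters' processing notes) and used CLC Genomics Workbench to map the pairs. The reference was the trichome PacBio transcripts, as predicted coding frames no shorter than 600 nt with similar frames merged into clusters. A pair was counted once, on either strand, and could match several clusters. The authors deposited RPKM values for 85 selected transcripts. Their 2 columns of correlation coefficients were not used, and 0 RPKM columns belonged to other samples. No genome was used. RPKM was used unfiltered with a pseudocount of 1 for log2 ratios, and 1-library organs were described without a test. Named were all transcripts higher in roots, all characterised genes, the terpene synthases, P450s and MEP pathway, the 10 lowest ratios and the extremes of each group, with others added to complete groups. Members, groups and this rule were chosen with earlier results of these data known.

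Fragments were recovered as RPKM × coding length × library total, with lengths taken as multiples of 3 between 600 and 3000 nt and totals as the smallest whole numbers that fitted, and 510 of 510 values were whole within 0.001. The search was tested on simulated data. Intervals are exact 95% Poisson (levels) and Clopper-Pearson (ratios). The alternatives were pseudocounts of 0.1 and 10, a mean of at least 10 RPKM, scaling to sequenced reads and centring on the ATP synthase subunits. Tools were matplotlib 3.10.9, pandas 2.3.3, scipy 1.17.1, numpy 2.4.6 and Python 3.11.15.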

Additional observations from a re-analysis of the deposited data

How the results depend on the processing

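Scaling to sequenced reads lowered the log2 ratio by 0.11 before the pseudocount and gave 8 transcripts more than 2-fold higher in roots and 55 more than 2-fold higher in stem. Centring on the ATP synthase subunits raised every ratio by 0.36 and gave 13 and 46. The sign turned for clust603 under the first of these and for clust1041, clust4242, clust5193, clust5293 and clust5317 under the second, all within 2-fold. The turn of clust1041 is fixed by the centring, as this subunit is part of the reference. Transcripts higher in roots numbered 19 to 25 over the alternatives. The median log2 ratio of the list was -2.50 with a pseudocount of 0.1 RPKM and -1.09 with 10 RPKM, since the pseudocount sets the ratio of low transcripts. A mean of at least 10 RPKM in the pair of libraries left 69 transcripts. The terpene synthase median was then -2.83. With a pseudocount of 10 RPKM the P450 median was -1.09, against -2.32 with 1. Depth limits the low root values: 13 transcripts had fewer than 10 fragments there. No paired analysis was possible because each organ has 1 library.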

Other observations

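The leaf libraries place the roots and stem values among the other organs. In 14 of the 20 transcripts higher in roots the stem library was the lowest of all 6 libraries. In 62 of the 65 transcripts higher in stem the roots library was. The choice of the sets by the ratio of the organs in part fixes these counts, since stem can be lowest only in the first set and roots only in the second. Outside trichomes, roots held the highest level of 4 transcripts: clust158, the DXS, at 465 RPKM in roots and 425 RPKM in leaves <3 cm, clust1630, the HDR, at 1032 RPKM in roots and 703 RPKM in leaves <3 cm, clust5333 at 610 RPKM in roots and 311 RPKM in leaves <3 cm, and clust2220 at 696 RPKM in roots and 649 RPKM in leaves <3 cm. Stem held the highest level of 2, clust5995 and clust2675. Roots stood above leaves >10 cm for 15 transcripts, among them SdPAOMT, at 105 RPKM in roots and 13.8 RPKM in leaves >10 cm. Stem stood above leaves >10 cm for 22 transcripts.

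Across the 85 transcripts the Spearman rho was 0.72 between roots and leaves >10 cm and 0.90 between stem and leaves >10 cm, and it was 0.78 between roots and stem. These describe a list selected on the same libraries, which share the transcript reference and the scaling, and genes are not independent replicates.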
